A study of Mus musculus with 2 samples.

Results

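The 9 complement genes described here are C1qa, C1qb, C1qc, C3, C4b, Cfb, Cfp, C3ar1 and C5ar1. They were found by gene symbol among the 32285 genes of each count matrix, and their unique molecular identifiers (UMIs, each standing for 1 captured RNA molecule) were summed over the cells of each marker-defined cell class and compared between genotypes. The matrices came from single-cell RNA sequencing, by the 10X Genomics 3′ method, of mouse kidneys collected 14 days after unilateral ischemia-reperfusion injury (IRI), in which the renal pedicle was clamped for 25 minutes. The PHDTiEC mouse carried Cdh5-CreERT2 together with Phd1f/f, Phd2f/f and Phd3f/f. Tamoxifen activates this Cre, which the Cdh5 promoter directs to endothelium, so that the 3 prolyl hydroxylase genes are deleted there. The enzymes they encode are oxygen sensors that mark hypoxia-inducible factors for degradation. The Cre- mouse was a littermate, and its alleles at the Phd loci are not given in the sources used here. Both mice were males that had surgery at 8 to 10 weeks of age, and the study's methods give 4 intraperitoneal tamoxifen doses of 3 mg per mouse, every other day from day 1 after IRI. Each genotype was 1 mouse and 1 library, so no difference below has a replicate check, and the intervals cover counting error only.

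Complement is a cascade of plasma and cell-surface proteins that tags targets for uptake by phagocytes, draws in leukocytes and can open pores in membranes. The classical pathway starts when C1q, built from the products of C1qa, C1qb and C1qc, binds a target and C4 and C2 are cleaved. The alternative pathway runs through factor B and is stabilized by properdin, and all routes meet at C3, whose fragment C3a is sensed by the C3a receptor while C5a is sensed by C5aR1. Liver is the main source of circulating C3, but kidney tubular epithelium and myeloid cells also make complement components, and the complement system has been studied widely in kidney injury.

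After filtering, 8548 Cre- and 9309 PHDTiEC cells remained, with a median of 7500 and 7898 UMIs per cell and 136004367 and 146758812 UMIs in all barcodes of the libraries. Clustering gave 32 clusters and 18 named classes with at least 50 cells in each library, among them 9 epithelial classes. The names rest on marker lists that hold no complement gene, and complement genes were left out of the clustering. Both libraries shared 28 kept barcodes. The median mitochondrial share of UMIs was higher in the Cre- library in each of the 18 classes, at 8.80% and 6.42% in collecting duct (CD)-like cells and 3.32% and 2.34% in macrophage-like cells. In endothelial-like cells, Egln1, the gene of PHD2, was measured at 67.4 counts per 1000000 UMIs (CPM) in the Cre- and 202 CPM in the PHDTiEC library, Egln3, the gene of PHD3, at 25.9 and 160 CPM, and Egln2, the gene of PHD1, at 44.0 and 39.3 CPM. These 3′ tags may lie outside the deleted parts and so do not check recombination, and because 2 of the 3 targeted genes were higher, the samples are named below as the library labelled Cre- and the library labelled PHDTiEC.

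The promoter stretches of the C1q genes and of C3 are shown because the results turn on these genes, which were expressed in different cells. C1qa, C1qb and C1qc lie next to each other on the minus strand of chromosome 4 (GRCm38), at 136895917 to 136898803, 136880129 to 136886187 and 136889804 to 136893065, and C3 lies on the minus strand of chromosome 17 at 57203970 to 57228136. Each sequence runs 5′ to 3′ on the strand of the gene and ends before its start; 6 of the 9 genes matched the RefSeq promoter table (GRCm38.p6), and C1qa, C4b and Cfb did not. The C1qb window is chr4:136886201-136886450, the C1qc window is chr4:136893066-136893164, which stops at the earliest annotated transcript start, and the C3 window is chr17:57228137-57228386. Capitals mark a PU.1 box (GAGGAA on either strand) in the C1q windows and a C/EBP box (TTGCNNAA on either strand) in the C3 window.
C1qb: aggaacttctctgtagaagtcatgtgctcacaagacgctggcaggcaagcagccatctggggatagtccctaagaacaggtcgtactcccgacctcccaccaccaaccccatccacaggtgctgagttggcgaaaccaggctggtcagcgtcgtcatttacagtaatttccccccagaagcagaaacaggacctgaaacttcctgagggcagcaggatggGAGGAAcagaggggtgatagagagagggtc
C1qc: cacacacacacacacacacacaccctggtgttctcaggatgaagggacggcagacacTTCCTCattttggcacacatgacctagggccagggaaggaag
C3: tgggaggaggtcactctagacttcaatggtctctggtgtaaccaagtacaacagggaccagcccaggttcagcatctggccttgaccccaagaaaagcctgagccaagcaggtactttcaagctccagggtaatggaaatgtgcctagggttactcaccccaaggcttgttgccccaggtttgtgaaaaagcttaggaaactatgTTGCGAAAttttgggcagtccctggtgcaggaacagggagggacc
PU.1 is a transcription factor of myeloid cells, and C/EBP factors act in myeloid, liver and acute-phase gene expression. A PU.1 box was present in 23.3% of 32851 promoters over the same 250 bases and in 9.91% over the 99 bases of the C1qc window, and a C/EBP box in 9.56%. The letters of the NF-kB motif (GGGA, any 2 bases, TTCC), the ISRE (GAAA, any 2 bases, GAAA), the TATA box (TATAAA) and the hypoxia response element (ACGTG) were not in these 3 windows, and were held by 1.21%, 2.98%, 12.4% and 16.6% of the promoters. The windows of the other matched genes, C3ar1 (246 bases), C5ar1 (48 bases) and Cfp (250 bases), are not printed and held neither a PU.1 nor a C/EBP box. A match of letters is a description and not a site.

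The 9 genes are sorted here only by the class of highest level among the 18 classes, which does not give their whole profile. The 3 C1q chains, C4b and C3ar1 had their highest level in macrophage-like cells. C3 was highest in injured proximal tubule (PT)-like cells and Cfb in PT-like cells. Cfp was highest in dendritic-like cells, close to its level in the macrophage classes, and C5ar1 in neutrophil-like cells. Levels of 1 gene are compared between classes, in CPM, and not between genes, since 3′ UMI counts are not scaled for capture of each transcript.

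**Figure D1:**
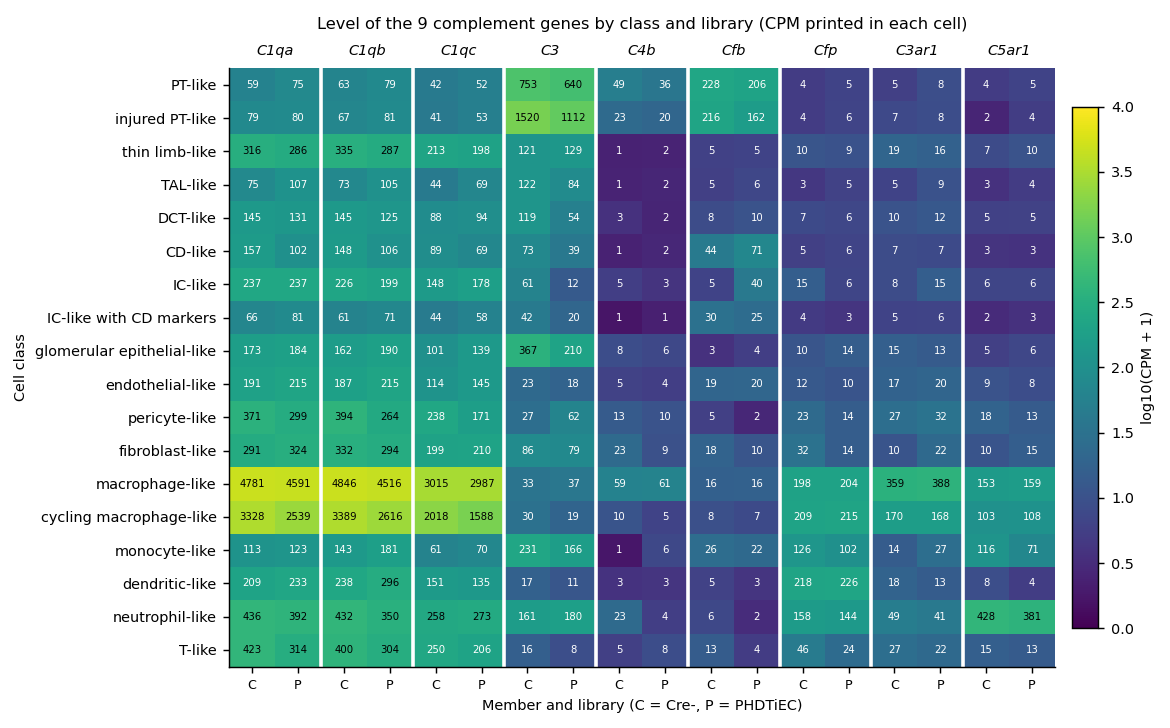
Levels of the 9 complement genes in 18 cell classes, with a column for each library, the color giving CPM on a log scale. C1qa reached 4781 and 4591 CPM in macrophage-like cells of the Cre- and PHDTiEC libraries, and C3 reached 1520 and 1112 CPM in injured PT-like cells.

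The comparison between genotypes asks whether endothelial loss of the PHD enzymes after ischemia goes with another level of complement transcripts in other kidney cells. With 1 library on each side, a gene was counted as different when it had at least 100 UMIs over both libraries in a class and its CPM differed by more than 1.5-fold. Of 110 pairs of a gene and a class with enough UMIs, 5 were past this fold higher and 10 lower in the library labelled PHDTiEC. In macrophage-like cells, 0 of 9 tested genes were past the fold, where 2.27% of all tested genes were. The same held for 0 of 7 in injured PT-like cells (5.37% of all tested genes), 0 of 5 in thin limb-like cells (2.41%), 0 of 6 in endothelial-like cells (6.74%), 0 of 3 in pericyte-like cells (12.6%), 0 of 4 in dendritic-like cells (7.42%) and 0 of 7 in neutrophil-like cells (4.31%). The 15 differences therefore lay in 11 classes, and C3 accounted for 6 of the 10 lower values.

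Those 11 classes held 1 to 3 differing genes each. In CD-like cells, C1qa and C3 were lower and Cfb was higher among 6 tested genes, against 5.17% of all tested genes. C3 alone was past the fold, and lower, in distal convoluted tubule (DCT)-like cells (1 of 7 tested, against 5.97%), intercalated (IC)-like cells (1 of 4, against 6.17%), IC-like cells with CD markers (1 of 7, against 4.29%), glomerular epithelial-like cells (1 of 5, against 3.67%) and cycling macrophage-like cells (1 of 7, against 3.84%). C1qc and C3ar1 were higher in thick ascending limb (TAL)-like cells (2 of 7, against 4.17%), and C3ar1 was higher in PT-like cells (1 of 9, against 4.28%). In fibroblast-like cells C3ar1 was higher and Cfp lower (2 of 6, against 8.26%). Cfp was lower in T-like cells (1 of 5, against 4.48%) and C5ar1 in monocyte-like cells (1 of 6, against 7.66%). The median log2 ratio of the tested complement genes was 0.05 in macrophage-like cells, -0.42 in CD-like cells and 0.53 in TAL-like cells, beside 0.04, 0.06 and 0.09 for all genes of those classes.

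**Figure D2:**
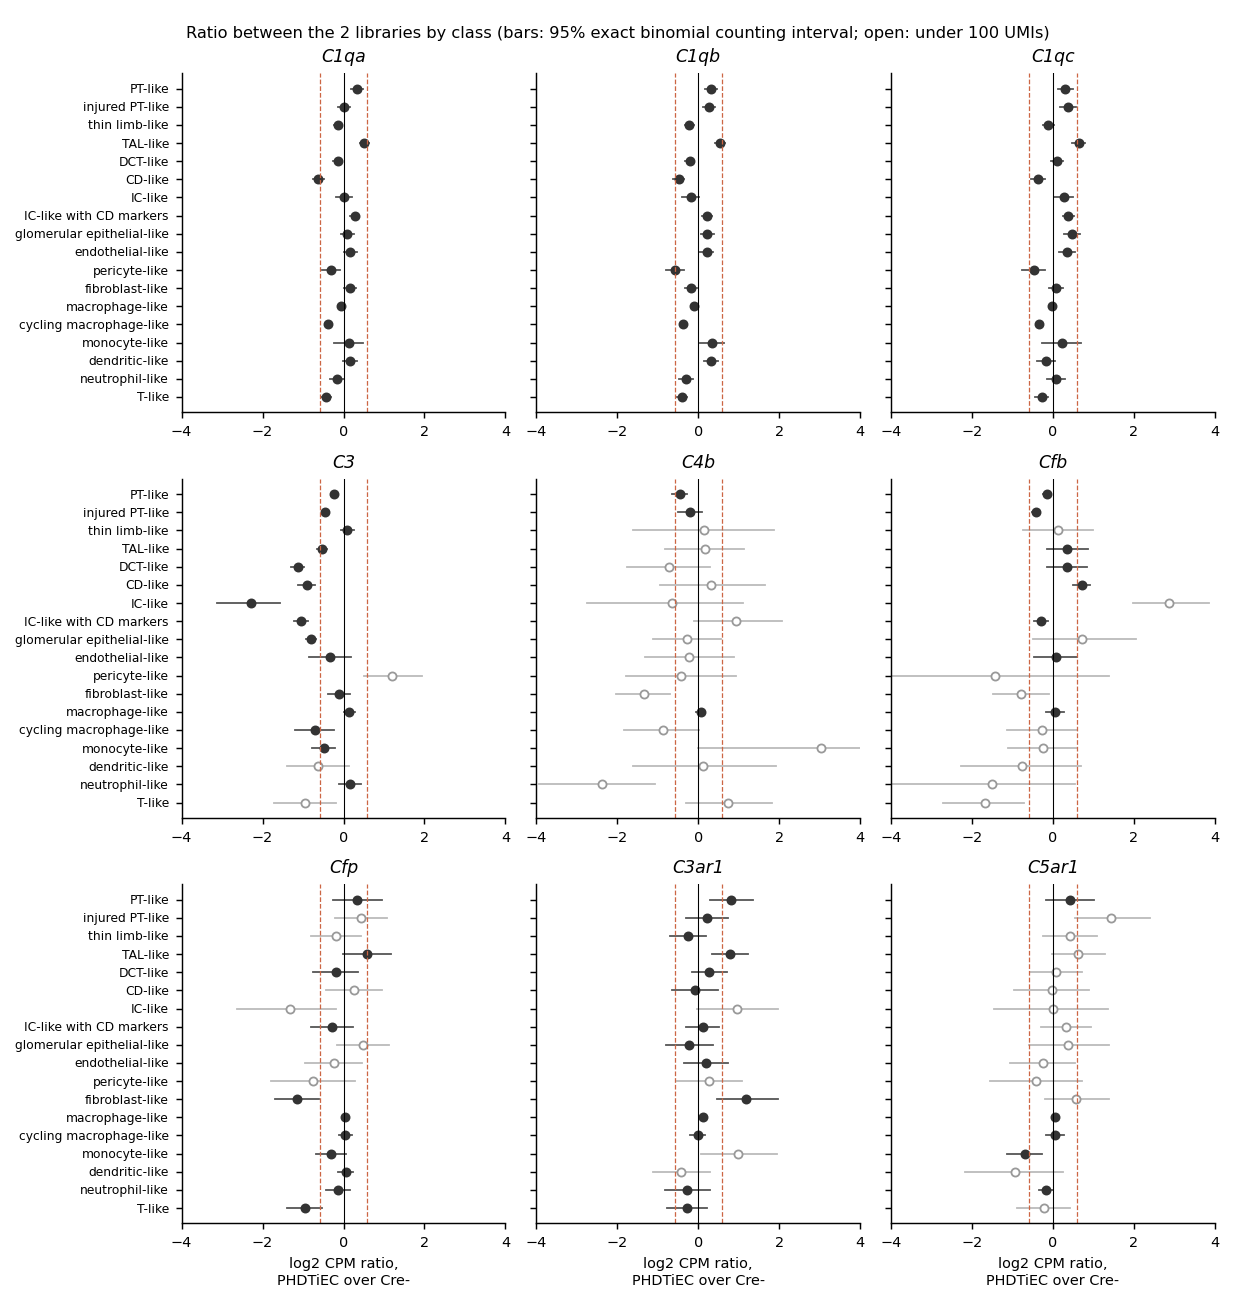
Log2 ratio of CPM (PHDTiEC over Cre-) of each complement gene in each class, with 95% exact intervals that cover counting error only and are drawn to 4 at most in either direction; open points have under 100 UMIs and dashed lines mark 1.5-fold. C3 lay below 0 in 12 of the 15 classes with enough UMIs, while the C1q chains in macrophage-like cells were at -0.06, -0.10 and -0.01.

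C1q is the recognition molecule of the classical pathway and is made mainly by macrophages and related phagocytes. In macrophage-like cells, C1qa was measured at 4781 CPM (95% exact Poisson interval 4751 to 4811) in the library labelled Cre- and 4591 CPM (4564 to 4618) in the library labelled PHDTiEC. C1qb was at 4846 and 4516 CPM there, and C1qc at 3015 and 2987 CPM. The log2 ratios were -0.06 (-0.07 to -0.05), -0.10 (-0.11 to -0.09) and -0.01 (-0.03 to 0.00), so C1q differed little between genotypes in the cells that held most of it. These cells carried 79.6% and 82.3% of all C1qa UMIs of the kept cells of the respective libraries.

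Nearly every macrophage-like cell held C1q. A C1qa UMI was found in 98.2% (exact binomial interval 97.5 to 98.7) and 97.3% (96.6 to 97.9) of them, at median depths of 7125 and 7550.5 UMIs. In T-like cells, which should lack the gene, the shares were 14.8% and 12.6% at 3289 and 3329 UMIs. This class includes a cluster of 34 and 24 cells that held 961 and 763 of its 1173 and 971 C1qa UMIs. The T-like shares given here and for the other genes include those cells and may be raised by them. With every cell thinned to 1000 UMIs in 1 random draw, the shares were 93.8% and 93.1% in macrophage-like cells and 7.5% and 5.96% in T-like cells, so depth did not set the order of these classes. UMIs of all 3 chains were seen in 97.0% and 96.2% of macrophage-like cells. The split of C1q UMIs over the chains was close between libraries, with C1qa at 37.8% and 38.0%, C1qb at 38.3% and 37.3%, and C1qc at 23.8% and 24.7% of the C1q UMIs.

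C1q varied more among the macrophage clusters than between genotypes. The cluster led by Ccl8 and Mrc1 had 6302 and 6100 CPM of C1qa, and the cluster led by Retnla and Ear2 had 4443 and 4322 CPM. The cluster led by Gpnmb and Arg1 had 2863 and 2891 CPM. Cycling macrophage-like cells were the exception between genotypes, with C1qa at 3328 CPM in the library labelled Cre- and 2539 CPM in the library labelled PHDTiEC, with the log2 ratio at -0.39 (-0.43 to -0.35). C1qb was at 3389 and 2616 CPM and C1qc at 2018 and 1588 CPM in the cycling cells, with log2 ratios of -0.37 and -0.35, all short of 1.5-fold. All 3 chains were found in 85.2% and 75.8% of the 182 and 157 cycling cells, and no chain in 8.79% and 14.6%. The summed level of 10 macrophage markers was 3981 and 3940 CPM in the cycling cells and 5785 and 6334 CPM in the other macrophage-like cells.

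**Figure D3:**
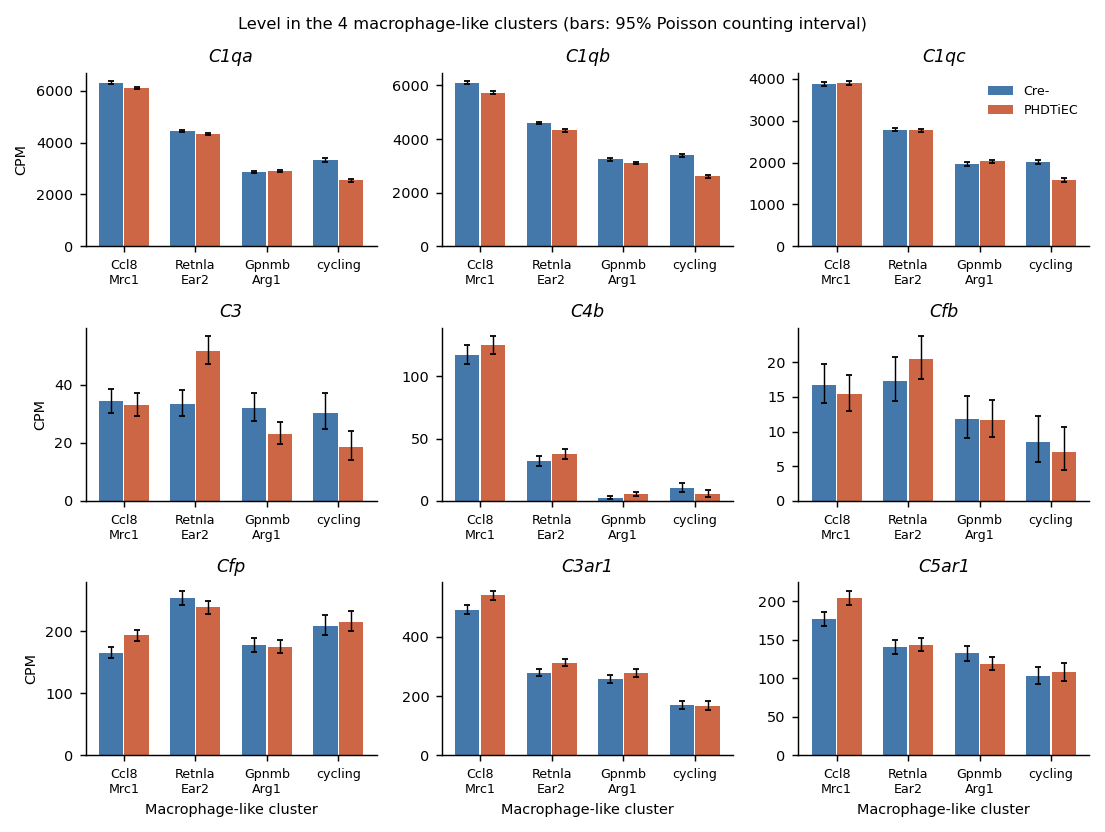
CPM of the complement genes in the 4 macrophage clusters, with bars for each library and 95% exact Poisson intervals that cover counting error only. C1qa stepped down from 6302 and 6100 CPM in the Ccl8 and Mrc1 cluster to 2863 and 2891 CPM in the Gpnmb and Arg1 cluster, and only the cycling cluster had C1qa log2 ratios as far from 0 as -0.39.

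Outside the macrophage classes, C1qa ran from 59.4 CPM in PT-like cells to 436 CPM in neutrophil-like cells of the library labelled Cre-, and from 75 to 392 CPM in the same classes of the library labelled PHDTiEC. C1qa UMIs per 100 UMIs of the 10 macrophage markers were 57.2 and 61.7 in PT-like cells, 96.9 and 88.1 in T-like cells and 82.6 and 72.5 in macrophage-like cells, but 4.89 and 5.96 in monocyte-like cells. In the 12 classes that are not immune, the 10 markers summed to 104 to 515 CPM in the library labelled Cre- and 122 to 670 CPM in the library labelled PHDTiEC, and none of the 10 was at 0 in any class. Monocyte-like cells thus had low C1q beside a summed marker level of 2304 and 2060 CPM. The T-like class held a small cluster of 34 and 24 cells with 2659 and 3122 CPM of C1qa, whereas its main cluster had 88.0 and 73.1 CPM.

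In the 18 classes, the 2 C1q values past 1.5-fold outside macrophages were no longer past it without barcodes that held immune transcripts. In CD-like cells, C1qa was at 157 and 102 CPM, with the log2 ratio at -0.62 (-0.75 to -0.49), and 1 cell held 18.6% of the C1qa UMIs of the library labelled Cre-. Without barcodes that had a UMI of Ptprc, Tyrobp or Csf1r, which are leukocyte and myeloid genes, the ratio was -0.03. In TAL-like cells, C1qc was at 44.1 and 68.6 CPM, with the log2 ratio at 0.64 (0.48 to 0.79), which became -0.35 (-1.02 to 0.32), an interval that spans 0, without such barcodes. Summed macrophage markers in TAL-like cells were 153 and 220 CPM, higher in the same library as C1qc.

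Endothelial-like cells, the class in which Cre acts, had no C1q value past the fold, but the class pools 2 clusters that went opposite ways. In the cluster led by Gpihbp1 and Fabp4, of 127 and 212 cells, C1qa was at 266 and 424 CPM (285 and 527 UMIs), with the log2 ratio at 0.68 (0.46 to 0.89). C1qb and C1qc were also higher there, with log2 ratios of 0.79 (0.57 to 1.00) and 0.86 (0.60 to 1.13). The share of all tested genes past 1.5-fold was 6.74% in the pooled class and was not computed for its clusters. In the cluster led by Sox17 and Igfbp3, of 188 and 230 cells, C1qa was at 147 and 113 CPM, with the log2 ratio at -0.38 (-0.62 to -0.13), and C1qb and C1qc were at -0.45 (-0.70 to -0.20) and -0.22 (-0.54 to 0.10). The 10 macrophage markers moved with C1q, at 426 and 920 CPM in the Gpihbp1 and Fabp4 cluster and 292 and 154 CPM in the Sox17 and Igfbp3 cluster. Without barcodes that had a UMI of Ptprc, Tyrobp or Csf1r, an alternative chosen after seeing the data, C1qa was at 17.6 and 30.9 CPM in the former (7 and 20 UMIs, log2 interval -0.49 to 2.30) and 14.6 and 14.4 CPM in the latter (17 and 27 UMIs, log2 interval -0.95 to 0.94). C1qb and C1qc had 3 to 21 UMIs per library and cluster without those barcodes, and each of their intervals spanned 0.

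**Figure D4:**
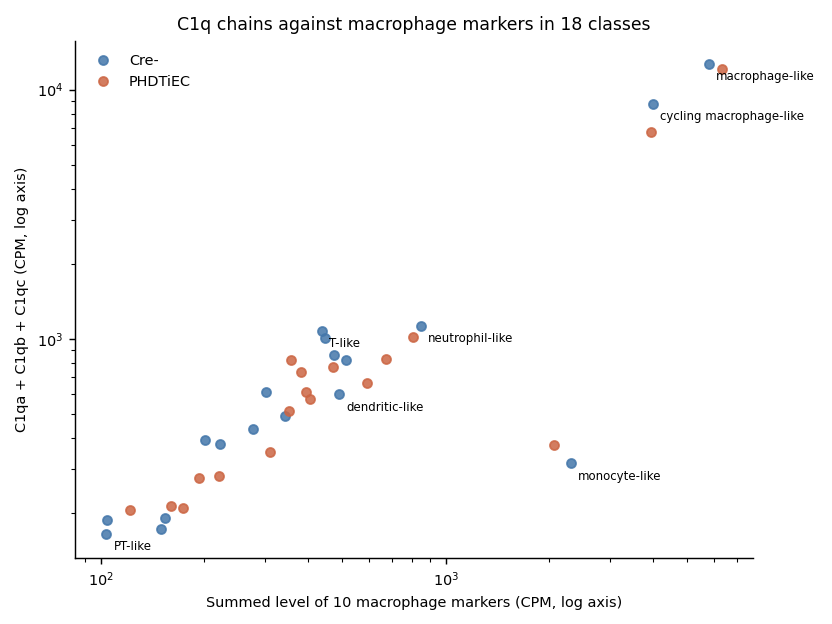
Summed CPM of C1qa, C1qb and C1qc against summed CPM of 10 macrophage markers in 18 classes, on log axes, with a point for each class and library. Macrophage-like cells lay at 5785 and 6334 CPM of the markers, and monocyte-like cells, at 2304 and 2060 CPM of the markers, had C1q far below the cycling macrophage-like cells, at 3981 and 3940 CPM.

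Genes with class profiles most like the C1q chains were macrophage genes. Over 36 points, from 18 classes in each of 2 libraries that share their class borders, Pearson's r of log2(CPM + 1) with C1qa was 0.959 for Fcrls, 0.954 for Ms4a7 and 0.931 for Pf4. For C1qb the leading genes were Fcrls (0.963), Trem2 (0.938) and Ms4a7 (0.934), and for C1qc they were Ms4a7 (0.964), Fcrls (0.958) and Pf4 (0.934). Ms4a7 and Trem2 are among the markers that named the macrophage classes.

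C4b encodes C4, which is cleaved by the C1 complex and forms part of the C3 convertase of the classical and lectin pathways. It lies on the minus strand of chromosome 17 at 34728380 to 34743882. C4b reached 58.6 CPM (55.4 to 62.0) in macrophage-like cells of the library labelled Cre- and 61.1 CPM (58.0 to 64.3) in those of the library labelled PHDTiEC, with the log2 ratio at 0.06 (-0.05 to 0.17). Within macrophages it was concentrated in the Ccl8 and Mrc1 cluster, at 117 and 125 CPM, against 31.9 and 37.4 CPM in the Retnla and Ear2 cluster. A C4b UMI was present in 21.4% and 20.4% of macrophage-like cells and 1.28% and 1.5% of T-like cells.

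PT-like cells were the other site of C4b, at 49.5 and 35.9 CPM with a log2 ratio of -0.46 (-0.65 to -0.27), and injured PT-like cells had 22.8 and 19.8 CPM. Only these 3 classes had 100 C4b UMIs. Of 411 windows of 90 bases, the length of the sequenced read, in the last 500 bases of the C4b transcript, 83 (20.2%) occur also in its near-identical copy C4a, so that C4b values are uncertain. C4a itself was at 0.722 CPM at most. The C4b profile was most like those of Maf (r of 0.823), Selenop (0.823) and Dpp7 (0.774).

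C3 is the central component that all complement pathways cleave. Its level was highest in injured PT-like cells, at 1520 CPM (1495 to 1545) in the library labelled Cre- and 1112 CPM (1091 to 1134) in the library labelled PHDTiEC, with the log2 ratio at -0.45 (-0.49 to -0.41). PT-like cells followed, with 753 and 640 CPM and a log2 ratio of -0.23 (-0.28 to -0.19). Together with glomerular epithelial-like cells, at 367 and 210 CPM, and monocyte-like cells, at 231 and 166 CPM, these were the classes above 200 CPM in the library labelled Cre-. Injured PT-like cells held 48.8% and 41.4% of all C3 UMIs of the kept cells, and PT-like cells 24.5% and 33.0%.

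A C3 UMI was found in 92.1% and 92.0% of injured PT-like cells, at median depths of 20704.5 and 20497 UMIs, and in 5.74% and 3.14% of T-like cells. With cells thinned to 1000 UMIs, the shares were 58.5% and 49.9% in injured PT-like cells and 32.4% and 31.9% in PT-like cells. The median injured PT-like cell held 26 and 14 C3 UMIs, so the shares at full depth were near their ceiling and differed once cells were thinned.

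Lower C3 in the library labelled PHDTiEC was found across most of the epithelium. The log2 ratio was below 0, with an interval below 0, in 8 of 9 epithelial classes, and 5 of the 9 were past 1.5-fold lower. Of all tested genes, the share past 1.5-fold in the lower direction was 2.19% for CD-like, 1.73% for DCT-like, 2% for IC-like, 1.19% for glomerular epithelial-like cells and 1.93% for the IC-like class with CD markers. C3 was short of the fold in the remaining epithelial classes, where this share was 1.46% for TAL-like, 2.2% for PT-like, 1.36% for thin limb-like and 1.22% for injured PT-like cells. The 9 classes come from the same 2 mice and are not separate replicates.

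The larger C3 differences lay in the distal nephron and the glomerulus. DCT-like cells had 119 CPM (111 to 126) and 54.4 CPM (49.7 to 59.4), with the log2 ratio at -1.13 (-1.29 to -0.97), and the share of cells with a UMI was 37.4% and 23.1%. CD-like cells had 72.5 and 38.7 CPM, with the log2 ratio at -0.91 (-1.12 to -0.70), and glomerular epithelial-like cells had a log2 ratio of -0.80 (-0.93 to -0.68). IC-like cells with CD markers had 42.1 and 20.3 CPM, with the log2 ratio at -1.06 (-1.23 to -0.88). The shares of cells with a C3 UMI were also lower in the library labelled PHDTiEC, at 23.4% and 17.1% in CD-like and 33.1% and 22.1% in IC-like cells with CD markers. The glomerular epithelial-like class merges a cluster of 174 and 193 cells, in which C3 was at 370 and 215 CPM with the log2 ratio at -0.79 (-0.91 to -0.66), and a cluster of 22 and 51 cells led by podocyte genes, in which C3 had 1 and 0 UMIs. Its share of cells with a C3 UMI, 58.2% and 49.2%, therefore also moves with the makeup of the class. The C3 ratio in CD-like cells was -0.46 without barcodes that had a UMI of Ptprc, Tyrobp or Csf1r, and thus short of the fold. In the other 3 classes it was past 1.5-fold under each alternative that kept the class name, apart from glomerular epithelial-like cells, which came to -0.51 in 1 of 14 alternatives.

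IC-like cells had the C3 ratio farthest from 0, and it rested on few cells. They had 147 UMIs (61.4 CPM) in the library labelled Cre- and 17 UMIs (12.5 CPM) in the library labelled PHDTiEC, with the log2 ratio at -2.30 (-3.12 to -1.57). A single cell held 59.2% of the 147 UMIs. The ratio was -1.51 without the cell of each library with most C3 UMIs, -0.05 without the barcodes of highest doublet score and 0.20 (-0.18 to 0.58) when the cells were clustered on 30 principal components, where the interval spans 0. TAL-like cells had 122 and 84.4 CPM, with the log2 ratio at -0.53, and thin limb-like cells had 121 and 129 CPM, with the log2 ratio at 0.09 (-0.07 to 0.26), the epithelial class in which C3 was not lower.

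**Figure D5:**
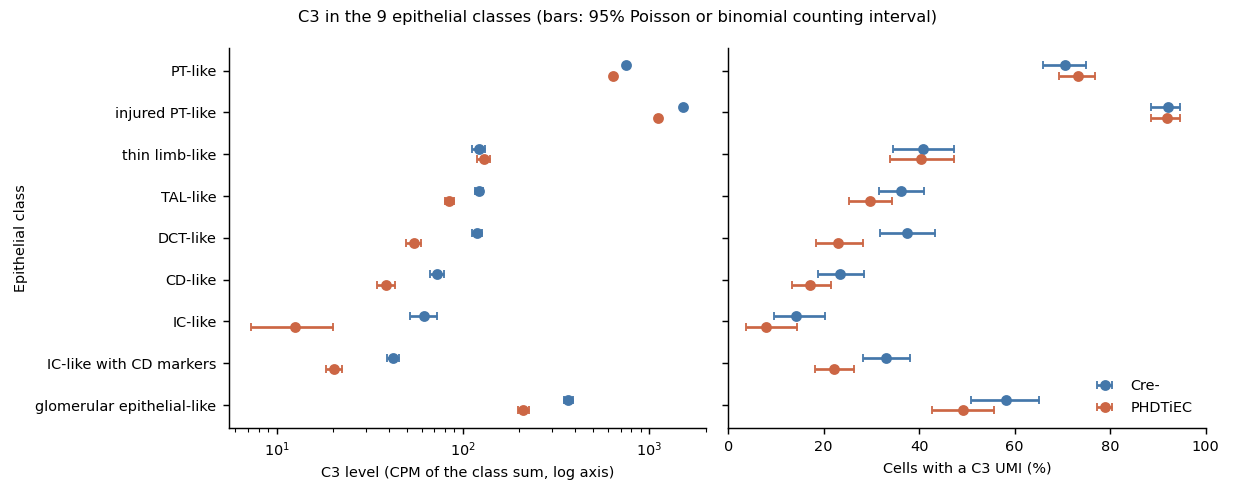
C3 in the 9 epithelial classes, as CPM on a log axis with 95% exact Poisson intervals and as the share of cells with a C3 UMI with exact binomial intervals, both covering counting error only. C3 was lower in the library labelled PHDTiEC in 8 classes, from 1520 and 1112 CPM in injured PT-like cells to 42.1 and 20.3 CPM in IC-like cells with CD markers, and was 121 and 129 CPM in thin limb-like cells.

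C3 outside the epithelium differed in direction among classes. Monocyte-like cells had a log2 ratio of -0.48 (-0.77 to -0.20), with a UMI in 62.7% and 48.8% of cells. Neutrophil-like cells had 161 and 180 CPM, with the log2 ratio at 0.16 (-0.11 to 0.44), whose interval spans 0. Fibroblast-like cells had 165 and 326 UMIs, 85.6 and 78.9 CPM, with the log2 ratio at -0.12. That ratio ran from -2.39 to 1.28 over the alternatives, so it has no settled direction. Macrophage-like cells had 33.4 and 36.9 CPM, but 2 of the 3 clusters within them had ratios of opposite sign, with 33.5 and 51.7 CPM in the Retnla and Ear2 cluster, with the log2 ratio at 0.62 (0.39 to 0.86), and 32.0 and 23.2 CPM in the Gpnmb and Arg1 cluster, with the log2 ratio at -0.47 (-0.79 to -0.14), while the Ccl8 and Mrc1 cluster was at -0.05 (-0.29 to 0.19). Cycling macrophage-like cells, a class of their own, had 30.4 and 18.6 CPM, with the log2 ratio at -0.71 (-1.20 to -0.23). This ratio was past the fold in 9 of 14 alternatives, over which it ran from -1.34 to -0.29. Summed neutrophil markers in the cycling cells were 982 and 49.6 CPM. Over all kept cells C3 was at 249 and 183 CPM. The C3 profile was most like those of Greb1l (r of 0.836), Cib1 (0.830) and Cldn2 (0.819), of which Cldn2 encodes a claudin of proximal tubule tight junctions.

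Cfb encodes factor B, the protease of the alternative pathway C3 convertase, and lies on the minus strand of chromosome 17 at 34856374 to 34862518. It was highest in PT-like cells, at 228 CPM (219 to 238) and 206 CPM (198 to 214), with the log2 ratio at -0.15 (-0.23 to -0.07). Injured PT-like cells had 216 and 162 CPM, with the log2 ratio at -0.41 (-0.51 to -0.32), and the share of them with a Cfb UMI was 91.5% and 79.2%. In PT-like cells this share was 88.7% and 86.5%, and in T-like cells 1.12% and 1.5%. Cfb was thus highest in the proximal tubule classes of both libraries, and was lower in injured PT-like cells of the library labelled PHDTiEC by less than 1.5-fold.

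CD-like cells were the class in which Cfb was past the fold, with 43.6 and 71.2 CPM and a log2 ratio of 0.71 (0.51 to 0.91). A Cfb UMI was found there in 29.5% and 23.6% of cells, a share lower in the library with the higher level. Without barcodes that had a UMI of Ptprc, Tyrobp or Csf1r, the Cfb ratio in CD-like cells was -0.45 (-0.80 to -0.10), the opposite direction. IC-like cells with CD markers had 30.2 and 24.7 CPM of Cfb, and macrophage-like cells 15.7 and 16.2 CPM. The profile of Cfb was most like those of Ces2c (r of 0.848), Fyb2 (0.813) and Ubd (0.808).

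Cfp encodes properdin, which stabilizes the alternative pathway convertase and is made by leukocytes rather than by tubular cells. It lies on the minus strand of chromosome X at 20925454 to 20931555. Dendritic-like cells had 218 CPM (198 to 239) and 226 CPM (208 to 245), cycling macrophage-like cells 209 and 215 CPM, and macrophage-like cells 198 and 204 CPM. The intervals of these 3 classes overlapped in each library, so their order is not resolved. Neutrophil-like cells had 158 and 144 CPM and monocyte-like cells 126 and 102 CPM, while the 9 epithelial classes ran from 3.39 to 14.6 CPM in the library labelled Cre- and from 3.12 to 14.2 CPM in the other. A Cfp UMI was present in 55.6% and 60.1% of dendritic-like cells, at median depths of 11030 and 10618 UMIs, and in 3.83% and 3.96% of T-like cells.

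Between genotypes, Cfp differed by less than 1.5-fold in each of these 5 leukocyte classes, with a log2 ratio of 0.05 (-0.13 to 0.23) in dendritic-like and 0.04 (-0.02 to 0.11) in macrophage-like cells. In the Ccl8 and Mrc1 cluster it was 165 and 193 CPM, with the log2 ratio at 0.23 (0.12 to 0.33). In the larger of the 2 neutrophil clusters it was 165 and 188 CPM, with the log2 ratio at 0.19 (-0.18 to 0.56). In the smaller (83 and 57 UMIs) it was 148 and 91.8 CPM, with the log2 ratio at -0.69 (-1.20 to -0.19). The share of all tested genes past the fold was 4.31% in the pooled neutrophil-like class and was not computed for its clusters. Values past the fold at the level of classes came from those with few UMIs. T-like cells had 127 and 73 UMIs, 45.8 and 23.6 CPM, with 240.7 and 200.5 CPM in the cluster of 34 and 24 cells that was also high in C1qa and 16.6 and 8.43 CPM in the main T-like cluster. Fibroblast-like cells had 61 and 59 UMIs, 31.6 and 14.3 CPM, with the log2 ratio at -1.15 (-1.69 to -0.61). Cysltr1 (r of 0.969), Evi2a (0.967) and Clec12a (0.966) had the class profiles most like Cfp.

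C3ar1 encodes the receptor for the anaphylatoxin C3a and lies on the minus strand of chromosome 6 at 122847138 to 122856161. It was highest in macrophage-like cells, at 359 CPM (351 to 367) and 388 CPM (381 to 396), with the log2 ratio at 0.12 (0.07 to 0.16). These cells held 82.8% and 84.0% of its UMIs, and 85.3% and 87.9% of them had a C3ar1 UMI, against 4.31% and 3.55% of T-like cells. The level was 491 and 541 CPM in the Ccl8 and Mrc1 cluster, 279 and 313 CPM in the Retnla and Ear2 cluster, 257 and 279 CPM in the Gpnmb and Arg1 cluster and 170 and 168 CPM in cycling cells. C3ar1 was thus higher in the library labelled PHDTiEC in the 3 clusters that were not cycling, by log2 ratios of 0.14, 0.17 and 0.12. Fcrls (r of 0.953), Trem2 (0.929) and Siglec1 (0.918) had the profiles most like it, and its own correlation with C1qa was 0.95.

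C3ar1 values past 1.5-fold were all higher in the library labelled PHDTiEC and all in classes with low levels. Fibroblast-like cells had 19 and 92 UMIs, 9.85 and 22.3 CPM, with the log2 ratio at 1.18 (0.45 to 1.97). PT-like cells had 4.69 and 8.23 CPM, with the log2 ratio at 0.81 (0.29 to 1.35), and TAL-like cells 5.46 and 9.37 CPM, with the log2 ratio at 0.78 (0.34 to 1.23). Summed macrophage markers in fibroblast-like, PT-like and TAL-like cells were 515 and 670, 104 and 122, and 153 and 220 CPM, each higher in the same library. C3ar1 in fibroblast-like cells had a log2 ratio of -0.98 without the barcodes of highest doublet score and -0.87 without those with a UMI of Ptprc, Tyrobp or Csf1r, and in PT-like cells it was -0.15 without the former, and the intervals of all 3 values span 0.

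C5ar1 encodes the receptor for C5a, a strong attractant of neutrophils, and lies on the minus strand of chromosome 7 at 16246743 to 16259540. Neutrophil-like cells had 428 CPM (393 to 466) and 381 CPM (349 to 416), with the log2 ratio at -0.17 (-0.34 to 0.01), whose interval just reaches 0. The neutrophil-like class has 2 clusters, and C5ar1 was at 541 and 499 CPM in the larger and 286 and 242 CPM in the smaller. A C5ar1 UMI was found in 49.9% and 46.6% of neutrophil-like cells at median depths of 1775 and 1770 UMIs, and in 3.35% and 3.00% of T-like cells.

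Macrophage-like cells had 153 and 159 CPM of C5ar1, with the log2 ratio at 0.06 (-0.01 to 0.13), and, as the class with most cells, held 68.3% and 71.6% of its UMIs. The Ccl8 and Mrc1 cluster had 177 and 204 CPM, with the log2 ratio at 0.21 (0.11 to 0.31). Monocyte-like cells had 151 and 68 UMIs, 116 and 71.3 CPM, with the log2 ratio at -0.70 (-1.13 to -0.28) that was the only C5ar1 value past 1.5-fold. The share of monocyte-like cells with a UMI was 33.5% and 25.0%. C5ar1 followed myeloid genes most closely, with r of 0.976 for Ccl3, 0.952 for Slc11a1 and 0.951 for Clec4d.

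The other complement genes were examined as a list of 44 by role. Of these, 22 genes had 100 UMIs in some class, giving 157 pairs of a gene and a class, of which 15 were past 1.5-fold higher and 9 lower in the library labelled PHDTiEC. Over all tested genes, the share past the fold in either direction ran from 2.27% in macrophage-like to 12.6% in pericyte-like cells. That range also stands beside the counts by role below. C8b and Cd55b had no UMI in the 18 classes. Among 15 genes of the classical and lectin pathways, 3 of 19 pairs were higher and 1 lower. C1s1, which encodes a protease of the C1 complex, reached 147 and 178 CPM in fibroblast-like cells, and the scavenger collectin Colec12 reached 302 and 317 CPM there. C2, the partner of C4 in the convertase, was highest in injured PT-like cells, at 66.3 and 59.8 CPM, the class in which C3 was highest.

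Past the fold in the classical and lectin group were Masp1, a lectin pathway protease, in DCT-like (log2 ratio 1.40) and PT-like cells (0.82), Fcna, a ficolin, in macrophage-like cells (0.61), and C1ra, in glomerular epithelial-like cells (-0.81). Terminal pathway genes had few UMIs. Of 7 listed, only C6 had enough UMIs in a class, and it was short of the fold at -0.57. The C5 gene Hc was at 4.67 and 0.969 CPM in fibroblast-like cells, from 9 and 4 UMIs, and Cfd, which encodes the protease that cleaves factor B, had 1 UMI in macrophage-like cells of the library labelled Cre- and 0 in the other.

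Soluble regulators limit complement, and of 7 listed, 2 of 32 pairs were past the fold higher and 5 lower. Cfi encodes factor I, which cleaves C3b, and was highest in PT-like cells, at 173 and 137 CPM, with all 5 tested classes below 0 and TAL-like cells past the fold at -0.91.

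Clu encodes clusterin, an inhibitor of the membrane attack complex and an injury marker of kidney tubules. It was highest in CD-like cells, at 13037 and 12670 CPM. Clu was lower in endothelial-like cells, at 974 and 249 CPM (log2 ratio -1.97), cycling macrophage-like (-0.82), PT-like (-0.73) and fibroblast-like cells (-0.69), and higher in pericyte-like cells, at 644 and 1665 CPM (1.37). Summed TAL markers went the same way in endothelial-like cells (655 and 107 CPM) and pericyte-like cells (664 and 1916 CPM). These markers were also lower in cycling macrophage-like (56.4 and 28.2 CPM) and PT-like cells (346 and 307 CPM), but not in fibroblast-like cells (57.6 and 87.4 CPM). Serping1, the C1 inhibitor gene, reached 1112 and 1237 CPM in fibroblast-like cells and was past the fold in macrophage-like cells at 1.91 and 3.61 CPM (0.92).

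Membrane regulators shield the cell's own surface, and 1 of 39 pairs was past the fold. Cd59a, which blocks pore formation, was at 149 and 147 CPM in endothelial-like cells and was higher in pericyte-like cells (log2 ratio 0.83). Cr1l, the rodent regulator Crry, was at 127 and 149 CPM in endothelial-like cells and past the fold in none of its 18 classes. Among 8 receptors, 9 of 66 pairs were higher and 3 lower. Itgam and Itgb2, the chains of complement receptor 3, reached 392 and 393 CPM in neutrophil-like cells and 573 and 476 CPM in monocyte-like cells. Both were past the fold higher in TAL-like (1.01 and 1.29) and fibroblast-like cells (1.84 and 0.79), with Itgb2 also higher in injured PT-like cells (1.06). In these 3 classes, in that order, summed macrophage markers were 153 and 220, 515 and 670, and 104 and 160 CPM. Summed neutrophil markers were 14.3 and 58.9, 172 and 321, and 44.4 and 59.6 CPM. Summed monocyte markers went the other way in fibroblast-like (471 and 406 CPM) and injured PT-like cells (229 and 184 CPM). The cause was not tested.

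Itgax, a chain of complement receptor 4, was at 142 and 183 CPM in dendritic-like and 159 and 153 CPM in macrophage-like cells, and C5ar2, a second C5a receptor, was highest in neutrophil-like cells at 53.6 and 62.0 CPM. C1qbp, the gene of a mitochondrial protein that binds C1q, was at 144 and 169 CPM in PT-like cells. Cd93, an endothelial surface protein once taken for a C1q receptor, was at 629 and 726 CPM in endothelial-like cells and past the fold higher in injured PT-like (1.53), fibroblast-like (1.47), DCT-like (1.27) and pericyte-like cells (0.93) and lower in TAL-like cells (-0.90). Summed endothelial markers moved the same way in each of these non-endothelial classes. In the order named, they were 67.1 and 143, 206 and 263, 29.7 and 70.6, 118 and 303, and 113 and 60.1 CPM. Cr2, complement receptor 2, was lower in CD-like (8.15 and 5.27 CPM, log2 ratio -0.63) and IC-like cells with CD markers (11.3 and 5.602 CPM, log2 ratio -1.01).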

How the data were processed

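The authors sequenced 10X Genomics 3′ v3.1 libraries of 1 Cre- and 1 PHDTiEC kidney and aligned them to mm10 with Cell Ranger, per the labels; the deposited matrices hold raw UMI counts per gene and barcode, with empty barcodes included. Barcodes with 500 to 100000 UMIs, at least 200 genes and at most 50% mitochondrial UMIs were kept. Seurat 5.3.0 (R 4.3.3) clustered both libraries together on 2000 variable genes without complement genes, with 20 principal components and resolution 0.8. Clusters were named from marker lists, and each name is a rebuilt one that may differ from the study's own. Counts were summed per class and library and scaled to CPM with Python 3.11.15, numpy 2.4.6 and pandas 2.3.3. Sums have exact Poisson intervals and shares exact binomial (Clopper-Pearson) intervals at 95% (scipy 1.17.1); log2 ratios have exact binomial intervals of the split of UMIs. All cover counting error only. With 1 library per genotype no p-value was computed.

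The members, gene lists, marker lists and fold were chosen with earlier results of these data known. The text names all 9 members in every class, genes of the wider list with at least 50 CPM in some class in both libraries or past 1.5-fold with at least 100 UMIs, and for each member the 3 genes outside the lists with the highest Pearson r among those with at least 500 UMIs; 1 gene of the wider list is not reported here, and other genes named were chosen after their values were seen. Doublets were kept in the main values. In an alternative they were scored with Scrublet in scanpy 1.11.5, whose automatic threshold marked 0 barcodes, so the 585 and 693 barcodes with the highest scores (0.8% per 1000 barcodes) were removed. Other alternatives changed the filters on barcodes, the clustering, the scaling (TMM from edgeR 4.0.16, among others), free RNA, the top cell and the UMI minimum, 17 in all. Free RNA was measured in barcodes of fewer than 100 UMIs. The interval and ratio code was tested on simulated data. Figures were drawn with matplotlib 3.10.9.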

Additional observations from a re-analysis of the deposited data

Results flagged for a closer look

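In all, 2 genes of the wider list were past 1.5-fold in opposite directions in different classes. The differences between classes were not tested, since each genotype is 1 library. Clu had a log2 ratio of 1.37 in pericyte-like cells and -1.97 in endothelial-like cells. Summed TAL markers moved the same way there, at 664 and 1916 CPM in the pericyte-like and 655 and 107 CPM in the endothelial-like cells. Cd93 had a log2 ratio of 1.53 in injured PT-like cells and -0.90 in TAL-like cells. Summed endothelial markers were 67.1 and 143 CPM in the injured PT-like and 113 and 60.1 CPM in the TAL-like cells. The cause of these opposite directions was not tested. None of the 9 members was past the fold in opposite directions in the 18 classes. C3 was past it higher (0.62) in the Retnla and Ear2 macrophage cluster, where 2.52% of all tested genes were past it in either direction. It was past the fold lower (-0.71) in cycling macrophage-like cells, where 3.84% were.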

How the results depend on the processing

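With 1 mouse and 1 library per genotype, these values describe 2 kidneys, and a difference between genotypes cannot be told apart from a difference between mice, dissociations or libraries. Low classes limit precision, since 100 UMIs over both libraries can leave intervals wider than 1.5-fold. No paired analysis was possible because each group has 1 sample and the result comes from no test.

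Of 126 log2 ratios of members in their main class under an alternative, 109 moved by less than their counting interval and 17 by more. With barcodes kept only from 10% of the depth of the 100th deepest barcode, the ratios were 0.013 for C1qa, -0.046 for C1qb, 0.043 for C1qc, 0.68 for C4b and 0.18 for C3ar1 in macrophage-like cells. Under TMM scaling they were -0.084, -0.13 and -0.038 for the 3 chains and -0.52 for C3 in injured PT-like cells. Without mitochondrial and rRNA-associated genes C1qa came to -0.0716 and C1qb to -0.11, and with a mean over cells C1qa came to -0.076. C3 in injured PT-like cells was -0.41 with a complexity of at least 0.8, -0.74 without barcodes with Ptprc, Tyrobp or Csf1r and -0.40 with free RNA subtracted. Cfb in PT-like cells was -0.25 at resolution 0.4, and Cfp in dendritic-like cells -0.14 with 30 principal components.

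Changes of direction were found for C1qc in TAL-like cells (-0.35), Cfb in CD-like cells (-0.45) and C3ar1 in fibroblast-like cells (-0.87) without barcodes with Ptprc, Tyrobp or Csf1r, for C3ar1 in fibroblast-like (-0.98) and PT-like cells (-0.15) without the barcodes of highest doublet score, and for C3 in IC-like cells (0.20) with 30 principal components. Of these 6 values, 5 have intervals that span 0 and give no direction, and only Cfb in CD-like cells (-0.80 to -0.10) does not.

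The 5 higher pairs of members became 0 without those immune-gene barcodes, 8 with complement genes allowed in clustering, 9 with a mean over cells and 14 at a minimum of 20 UMIs. The 10 lower pairs became 17 without the barcodes of highest doublet score, 6 at resolution 0.4, 6 with 30 principal components, 17 with free RNA subtracted and 21 at 20 UMIs. The 5 epithelial classes with lower C3 became 3 at resolution 0.4, where 5 of the 9 class names were found, and 1 with 30 principal components, where 6 were found. In an alternative added after seeing the data, C3 was read in each of the 30-component clusters whatever its name, and was 93.4 and 41.7 CPM (log2 ratio -1.16) in a cluster with DCT and CD markers and 46.7 and 27.0 CPM (-0.79) in a cluster without a name made mostly of IC-like cells with CD markers. For the wider list, the 15 higher and 9 lower pairs became 5 and 4 without the immune-gene barcodes and 42 and 30 at 20 UMIs, and the higher ones 5 without the barcodes of highest doublet score. The alternatives without immune-gene barcodes, at resolution 0.4 and with 30 principal components held 12, 13 and 15 of the 18 classes. Their counts of pairs therefore cover fewer classes than the main counts. The cause of these changes was not tested.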

Other observations

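Clusters without a class name also held complement transcripts. A cluster of 263 and 234 barcodes with median depths of 801 and 730 UMIs had summed macrophage markers at 3767 and 3951 CPM in the libraries labelled Cre- and PHDTiEC, and C1qa at 4730 and 4092 CPM, close to the macrophage-like level. Another of 533 and 527 barcodes, with median depths of 1119 and 1004 UMIs, had PT markers first and DCT markers next. In it C1qa was at 234 and 579 CPM, C1qb at 261 and 704 CPM and C1qc at 155 and 363 CPM, beside summed macrophage markers of 330 and 775 CPM, whereas C3 was at 291 and 322 CPM. These clusters were left without a name and entered no comparison.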
